A study of Mus musculus with 6 samples.

Results

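The genes described here are 7 genes linked to the response of myeloid cells to IL-10 through STAT3: Il4ra, Nfil3, Sbno2, Arid5a, Etv6, Etv3 and Bcl3. They were taken by name from the list that defines them, and all 7 were found among the 34187 genes of the deposited count matrices. The rule takes them by name and uses no measured value, although the set was drawn up with earlier results of these data known. Their levels were followed across macrophages, dendritic cells, neutrophils, T cells and NK cells of mouse pancreatic tumors, and in each class between 3 treatments.

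C57BL/6 mice carried subcutaneous tumors of 6694c2vTRP1 cells, a single pancreatic cancer line. They received PBS, mono-IL10 at 26 µg per mouse or IL10/2-Trikine at 30.6 µg per mouse by intraperitoneal injection, in 2 doses of which the first was given on day 8, and tumors were taken on day 14. CD45+ cells of the 5 mice of a treatment were isolated with magnetic beads, marked with 1 hashtag antibody per mouse and pooled in 1 gene expression library per treatment, so treatment and library cannot be told apart. The labels name no other allele or agent. The study's methods describe young adult male and female C57BL/6 mice for its pancreatic tumor model and do not repeat age or sex for the single-cell experiment. Mono-IL10 is a monomeric human IL-10 with raised affinity for IL-10Rβ. IL10/2-Trikine joins that molecule to an IL-2 variant that holds IL-2Rβ without signaling through the common γ chain, so that a further receptor chain is brought into the complex.

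IL-10 binds IL-10Rα and IL-10Rβ, whose kinases JAK1 and TYK2 phosphorylate STAT3. In macrophages and dendritic cells STAT3 then acts mainly by inducing other genes, several of which encode repressors or cofactors that lower the transcription or stability of inflammatory transcripts. Bcl3 is an atypical IκB protein that holds p50 NF-κB dimers on DNA. Sbno2 is a helicase-like corepressor. Nfil3 is a basic leucine zipper repressor that acts on the Il12b locus in macrophages and is needed for NK cell development. Etv3 and Etv6 are repressors of the ETS family. Arid5a is an RNA-binding protein that stabilizes selected cytokine transcripts. Il4ra encodes the receptor chain shared by IL-4 and IL-13, which signals through STAT6.

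The promoters of these genes were searched for TTCNNNGAA, the palindrome that STAT dimers bind, because the genes are grouped by their link to STAT3. RefSeq lists 9 promoter windows for the 7 genes on GRCm38.p6, an earlier build than the GRCm39 build of the counts, each with 250 bases before the start and 50 after it. The motif, which reads the same on both strands, was present in 3 of the 9 windows, against 8.30% of all 32851 promoters. Both Sbno2 windows with a match, on the minus strand at chr10:80102653-80102952 and chr10:80101138-80101437, hold it within the last 30 bases before the start. The third Sbno2 window, at chr10:80075390-80075689, holds no match. The 100 bases before the start in both windows with a match, at chr10:80102703-80102802 and chr10:80101188-80101287, are shown with the motif in capitals. The same stretch of Il4ra, at chr7:125552171-125552270 on the plus strand, is shown because Il4ra had the largest change of the 7 in macrophages and its window holds no match.
Sbno2, first window: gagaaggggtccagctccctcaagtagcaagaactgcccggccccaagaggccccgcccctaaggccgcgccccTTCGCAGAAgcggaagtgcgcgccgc
Sbno2, second window: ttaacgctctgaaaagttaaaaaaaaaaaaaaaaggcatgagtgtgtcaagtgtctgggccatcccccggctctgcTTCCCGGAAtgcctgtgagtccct
Il4ra: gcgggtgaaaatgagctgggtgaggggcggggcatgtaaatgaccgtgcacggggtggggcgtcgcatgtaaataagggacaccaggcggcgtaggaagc
The first Sbno2 match is TTCGCAGAA, starting 26 bases before the start, and the second is TTCCCGGAA, starting 24 bases before it. The window of Etv6 at chr6:134035450-134035749 on the plus strand holds TTCCAGGAA 22 bases after the start. The same palindrome with 4 bases in its middle was in none of the 9 windows and in 6.95% of all promoters.

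The matrices held between 30528 and 55504 barcodes per library, of which 34518 PBS, 24060 mono-IL10 and 46104 IL10/2-Trikine barcodes had at least 1000 genes and at most 10% mitochondrial counts, with medians of 9474, 11643.5 and 6399 UMIs. Hashtags gave no mouse for 17.9% to 32.1% of them and more than 1 mouse for 8.50% to 12.2%. Outside the authors' deposited annotation, the former entered the clustering but not the sums per mouse. The latter were left out of both. Cells in that annotation kept the authors' mouse, and the hashtag call here gave the same mouse for 93.2% to 98.8% of them. Between 408 and 700 barcodes occurred in both libraries of a pair. T and NK cells were those of the authors' deposited annotation. Macrophage- or monocyte-like, neutrophil-like and dendritic-like cells were k-means clusters named from fixed markers, with the 7 genes kept out of the clustering. They are called macrophages, neutrophils and dendritic cells here. The markers of the first class include the monocyte genes Ly6c2 and Ccr2, so monocytes were not separated from macrophages in it. Although the cells were enriched for CD45, clusters with markers of tumor epithelium, fibroblasts and endothelium were present.

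Counts were summed over the cells of a class in each mouse, which is the replicate, and levels are given as CPM of that sum, the counts scaled to a total of 1000000 unique molecular identifiers (UMIs). The log2 changes below come from fits that also scale each mouse by a TMM factor, which these levels lack. A small log2 change can therefore differ from the ratio of the mean levels, also in sign. Macrophages were much the deepest class, with 17244 cells and 1057523 to 11937104 UMIs per mouse, so that a single UMI was worth at most 0.946 CPM. A single UMI was worth up to 22.1 CPM in dendritic cells (607 cells), 28.1 CPM in neutrophils (727 cells), 21.4 CPM in T cells (876 cells) and 29.5 CPM in NK cells (498 cells). Mice with fewer than 10 cells of a class were left out of it, which left 12 mice for neutrophils and 14 for NK cells. A small difference in the latter 4 classes was therefore harder to detect than the same difference in macrophages.

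The 7 genes did not share 1 order over the cell classes. By the means over all mice, macrophages had the highest level of Il4ra alone, while dendritic cells led for Etv3, Etv6 and Nfil3, neutrophils for Bcl3 and NK cells for Arid5a. For Sbno2 the leading class was neutrophils in PBS mice and macrophages in mono-IL10 mice. Within groups, dendritic cells led for Etv3 and Etv6 in all 3, while in mono-IL10 mice macrophages led for Nfil3 and T cells for Arid5a, and in PBS mice NK cells led for Il4ra. The levels below are means over all mice of the 3 groups and are a description, with no test.

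Il4ra was at 298 ± 107 CPM in macrophages (SD, n = 15), above dendritic cells in 15 of 15 mice. It was at 148 ± 45.3 CPM in dendritic cells, 136 ± 57.9 in NK cells, 111 ± 35.7 in neutrophils and 90.1 ± 35.4 in T cells, and dendritic cells exceeded NK cells in only 8 of 14 mice. The lead of macrophages was a feature of the treated mice. In the PBS group NK cells had 173 ± 50.8 CPM and macrophages 166 ± 18.7, and NK cells were the higher in 3 of 5 mice.

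Etv3 was the gene most set apart by class. Its level was 401 ± 102 CPM in dendritic cells, 5.48 times the 73.2 ± 11.1 CPM in macrophages, and the ranges over the 15 mice did not overlap. NK cells, T cells and neutrophils followed at 43.2 ± 41.6, 33.7 ± 21.3 and 25.5 ± 15.8 CPM, with T cells above neutrophils in 7 of 12 mice. Etv6, the related repressor, kept the same leading pair, at 480.0 ± 59.3 CPM in dendritic cells and 318 ± 37.3 in macrophages, higher in dendritic cells in 15 of 15 mice. It was then at 215 ± 67.7 CPM in neutrophils, 82.8 ± 26.9 in T cells and 53.2 ± 25.8 in NK cells.

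Among dendritic cells, the mature clusters marked by Ccr7, Fscn1 and Ccl22 held more of these repressors than the conventional clusters marked by Flt3, Xcr1 and Clec9a. In PBS mice Etv3 was at 513 ± 60.8 CPM in mature and 209.8 ± 40.7 CPM in conventional dendritic cells (SD, n = 5). Nfil3 was at 256 ± 44.5 against 132 ± 27.0 CPM and Il4ra at 157 ± 49.1 against 84.6 ± 22.3 CPM. In the 9 mice with enough cells of both kinds, Etv3, Nfil3 and Il4ra were each higher in the mature cells in 9 of 9. Etv6 was higher there in 7 of 9, at 625 ± 36.9 against 389.8 ± 59.0 CPM in PBS mice.

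Nfil3 did not separate the leading pair, with 236 ± 67.5 CPM in dendritic cells and 225 ± 48.5 CPM in macrophages, dendritic cells being higher in 10 of 15 mice. Neutrophils followed with 144 ± 34.2 CPM, and NK cells at 97.96 ± 58.8 CPM and T cells at 87.4 ± 44.9 CPM were not ordered, NK cells being higher in 7 of 14 mice. Sbno2 was at 106 ± 44.96 CPM in neutrophils and 93.8 ± 15.4 in macrophages, but this order, held by 7 of 12 mice, depended on the group. Neutrophils were higher in 5 of 5 PBS mice, at 116 against 76.3 CPM, and macrophages were higher in 5 of 5 mono-IL10 mice, at 104 against 72.9 CPM, while only 2 IL10/2-Trikine mice had enough neutrophils. Sbno2 was lower in dendritic cells at 69.6 ± 19.96 CPM and lowest in T and NK cells at 35.9 ± 11.1 and 24.7 ± 19.2 CPM.

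Bcl3 was highest in neutrophils at 101 ± 31.2 CPM, 2.08 times the level of T cells (48.7 ± 25.2 CPM) and higher than them in 11 of 12 mice. Macrophages, NK cells and dendritic cells had 28.8 ± 5.09, 27.3 ± 20.3 and 22.5 ± 13.2 CPM, and neighbors in this order did not separate. Arid5a had the reverse arrangement of Etv6 at its ends. It was highest in lymphoid cells, at 132 ± 38.8 CPM in NK cells and 112 ± 34.6 CPM in T cells, then at 81.1 ± 27.9 in neutrophils, 52.9 ± 7.22 in macrophages and 36.2 ± 18.2 in dendritic cells.

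The levels in lymphoid cells were set beside the C1q genes, which macrophages express and T and NK cells should lack. The summed C1q level in T cells was a median 1.79% of that in macrophages of the same mouse (range 1.01% to 3.40%), and in NK cells 1.204% (0% to 3.04%). The lowest median among the 7 genes was that of Etv6, at 16.9% of the macrophage level in NK cells and 22.2% in T cells, and Il4ra was at 45.01% and 25.5%. Arid5a was at 242% and 207% of the macrophage level. In dendritic cells the C1q level was 24.1% of that in macrophages, and the part of macrophage RNA in the dendritic values was not tested.

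**Figure D1:**
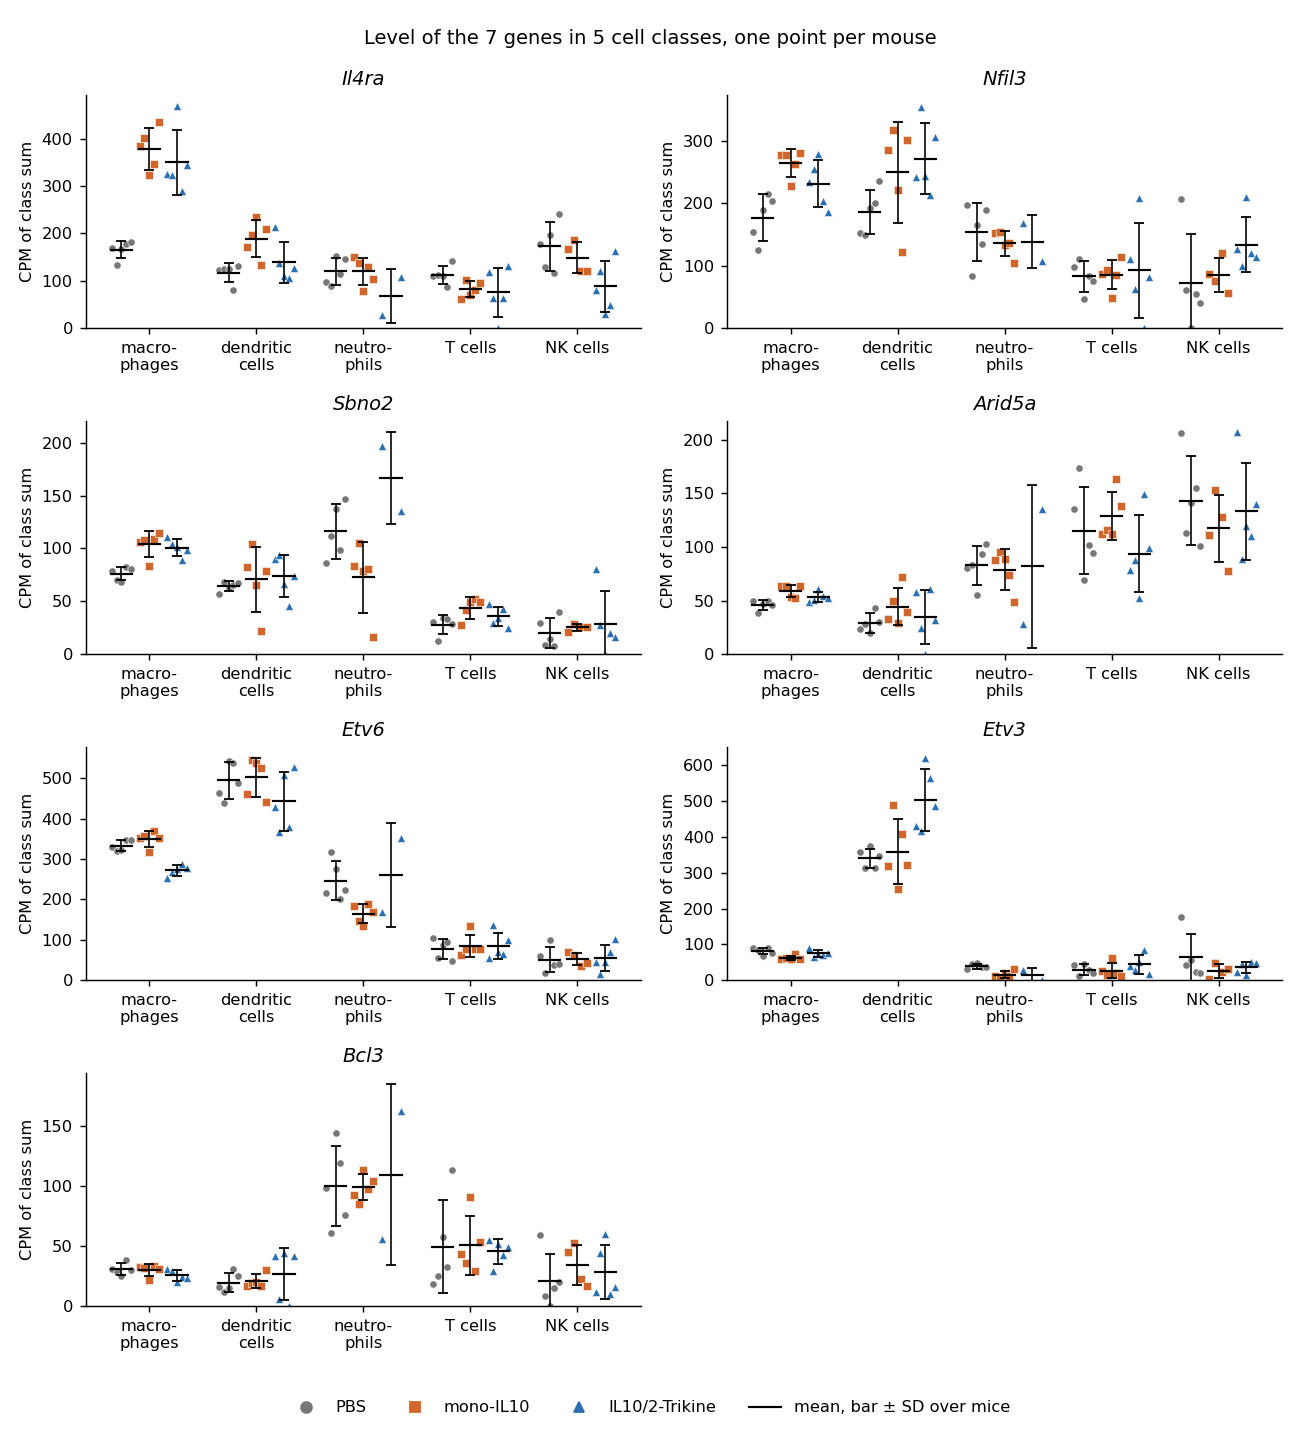
Level of each of the 7 genes in 5 cell classes, in CPM of the class sum, with 1 point per mouse colored by treatment and bars for the mean ± SD of each group. Etv3 in dendritic cells lies above every macrophage value, and Il4ra in macrophages lies between 134 and 182 CPM in PBS mice and between 290.2 and 468 CPM in treated mice.

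Within the annotated lymphocytes, Nfil3, Bcl3, Etv6, Sbno2 and Arid5a had unlike means between subsets, given here as a description with no test. In the mono-IL10 group, regulatory T cells had 275 ± 29.9 CPM of Nfil3 and 152 ± 105 CPM of Bcl3 (SD, n = 3), against 43.7 ± 18.9 and 9.46 ± 11.4 CPM in naive CD8 T cells (n = 4). In the same subsets Etv6 was at 110 ± 22.9 against 18.7 ± 12.6 CPM and Sbno2 at 104 ± 32.9 against 22.1 ± 26.6 CPM. Arid5a ran the other way, at 34.0 ± 37.4 CPM in regulatory T cells and 189 ± 41.2 CPM in naive CD8 T cells. These values rest on few molecules, 32 UMIs of Nfil3, 18 of Bcl3 and 4 of Arid5a in the regulatory T cells and 4 of Bcl3 in the naive CD8 T cells. Most annotated subsets had too few mice in the other groups to compare treatments.

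In macrophages, mono-IL10 changed 6 of the 7 genes against PBS by edgeR's quasi-likelihood test with Benjamini-Hochberg adjustment over 11870 genes (adjusted p under 0.05). Il4ra, Nfil3, Sbno2, Arid5a and Etv6 were higher and Etv3 was lower, while Bcl3 did not pass. Of all genes tested 25.9% passed, 12% higher and 13.9% lower, so this class moved broadly. With IL10/2-Trikine 4 of the 7 passed, where 16.5% of all genes did, 8.26% higher and 8.27% lower. Il4ra, Sbno2 and Nfil3 were higher and Etv6 was lower. Lymphocyte markers were low in the macrophage sums but moved with IL10/2-Trikine, T cell markers summing to 45.9 to 78.0 CPM against 23.5 to 39.04 in PBS and 9.16 to 33.6 CPM in mono-IL10, and NK cell markers to 10.6 to 24.6 against 3.31 to 8.46 and 1.33 to 4.94 CPM. Their part in these changes was not tested. The median log2 change of the 7 genes was 0.46 with mono-IL10 and 0.20 with IL10/2-Trikine, against -0.02 and 0.00 over all genes tested.

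Il4ra changed most. Its macrophage level was 169, 134, 167, 178 and 182 CPM in PBS mice 1 to 5, 385, 401, 323, 346 and 436 CPM in mono-IL10 mice and 325, 324, 468, 290.2 and 344 CPM in IL10/2-Trikine mice. Every treated mouse lay above every PBS mouse, and the treated groups overlapped. The log2 change was 1.28 ± 0.10 (SE) with mono-IL10, a 2.42-fold difference (adjusted p = 4.3e-08), and 1.08 ± 0.10 with IL10/2-Trikine, a 2.11-fold difference (adjusted p = 1.0e-06). Between 495 and 4601 UMIs of Il4ra per mouse stood behind these values. Both calls held in every one of the 26 other settings tried, with log2 changes of 1.12 to 1.62 and 0.88 to 1.13.

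Nfil3 was at 154, 125, 190.0, 214 and 203 CPM in PBS mice, 278, 277, 227, 263 and 281 CPM in mono-IL10 mice and 235, 256, 279, 203 and 186 CPM in IL10/2-Trikine mice. Only the mono-IL10 mice lay wholly above PBS. The log2 change was 0.68 ± 0.12 with mono-IL10 (1.60-fold, adjusted p = 0.00024) and 0.40 ± 0.12 with IL10/2-Trikine (1.32-fold, adjusted p = 0.027). The second call was lost on leaving out PBS mouse 1 or 2 or IL10/2-Trikine mouse 1, 2 or 3, with log2 changes of 0.31 to 0.39 and adjusted p of 0.051 to 0.083.

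Sbno2 was at 79.0, 70.5, 68.4, 82.6 and 81.0 CPM in PBS mice, 106, 109, 83.5, 109 and 114 CPM in mono-IL10 mice and 111, 104, 101, 89.1 and 98.7 CPM in IL10/2-Trikine mice. Neither treated group overlapped PBS, the closest being mono-IL10 mouse 3. The log2 change was 0.54 ± 0.08 with mono-IL10 (1.45-fold, adjusted p = 4.8e-05) and 0.43 ± 0.08 with IL10/2-Trikine (1.34-fold, adjusted p = 0.0014). Neither passed in the largest shared macrophage cluster (0.41 and 0.40) or with clusters weighted equally (0.65 and 0.67).

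Arid5a was at 49.7, 38.4, 47.0, 49.5 and 45.7 CPM in PBS mice, 63.2, 63.3, 53.5, 52.8 and 63.6 CPM in mono-IL10 mice and 49.1, 50.6, 60.5, 54.5 and 52.4 CPM in IL10/2-Trikine mice. The mono-IL10 mice lay above all PBS mice, whereas the IL10/2-Trikine mice overlapped both other groups. The log2 change was 0.46 ± 0.07 with mono-IL10 (1.37-fold, adjusted p = 8.9e-05) and 0.20 ± 0.08 with IL10/2-Trikine (adjusted p = 0.091). The mono-IL10 call held in the largest shared macrophage cluster alone. With clusters weighted equally it was lost, and the change had the opposite sign.

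In the macrophage sums, Etv6 was lower with IL10/2-Trikine and slightly higher with mono-IL10. It was at 329, 319.6, 322, 347 and 347 CPM in PBS mice, 352, 358, 318, 369 and 353 CPM in mono-IL10 mice and 253, 267, 275, 289 and 278 CPM in IL10/2-Trikine mice. All IL10/2-Trikine mice lay below all mice of the other groups, and PBS and mono-IL10 overlapped. Macrophages of IL10/2-Trikine mice also had fewer UMIs per cell, 2698 to 3361 on average per mouse against 4785 to 6611 in PBS and 5094 to 7807 in mono-IL10 mice. The log2 change was -0.28 ± 0.06 with IL10/2-Trikine (adjusted p = 0.0023) and -0.32 in cells with at least 2000 genes. With the UMI totals of all mice thinned to the smallest it was -0.29. Thinning draws from the sum of a mouse and keeps its expected proportions, so it cannot show an effect of UMIs per cell. With mono-IL10 the log2 change was 0.16 ± 0.06 (adjusted p = 0.044), at mean levels of 350 CPM against 333 in PBS. That call was lost on leaving out any of 7 mice: PBS 1 or 3, mono-IL10 1, 2, 4 or 5, or IL10/2-Trikine 2. It then had log2 changes of 0.15 to 0.17 and adjusted p up to 0.084. Both calls were lost where the cluster mixture was held. In the largest shared macrophage cluster alone the log2 changes were -0.0058 with mono-IL10 and 0.0019 with IL10/2-Trikine. With clusters weighted equally they were 0.19 and -0.12. Fewer of all genes passed there, 288 and 310 of 5484 in the cluster and 220 and 176 of 3905 with equal weights. The parts of depth and of mixture in the lost calls were not tested.

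Etv3 was at 89.6, 84.2, 68.3, 89.4 and 76.7 CPM in PBS mice, 58.6, 63.2, 60.3, 73.3 and 60.6 CPM in mono-IL10 mice and 91.1, 64.5, 71.9, 70.9 and 74.9 CPM in IL10/2-Trikine mice. Of the mono-IL10 mice 4 of 5 lay below the lowest PBS mouse. The log2 change was -0.29 ± 0.09 with mono-IL10 (adjusted p = 0.030) and -0.10 ± 0.10 with IL10/2-Trikine (adjusted p = 0.55). The first call was lost without PBS mouse 1, 2 or 4 or without mono-IL10 mouse 1, 2, 3 or 5, with log2 changes of -0.27 to -0.24 and adjusted p up to 0.094. With the macrophage UMIs of every mouse thinned to the same total it was -0.19 (adjusted p = 0.38).

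Bcl3 stayed between 19.9 and 38.8 CPM over all 15 mice and the groups overlapped. Its log2 change was 0.07 ± 0.12 with mono-IL10 (adjusted p = 0.74), with a range of 2 SE from -0.18 to 0.31, and -0.16 ± 0.14 with IL10/2-Trikine (adjusted p = 0.49), from -0.44 to 0.12.

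**Figure D2:**
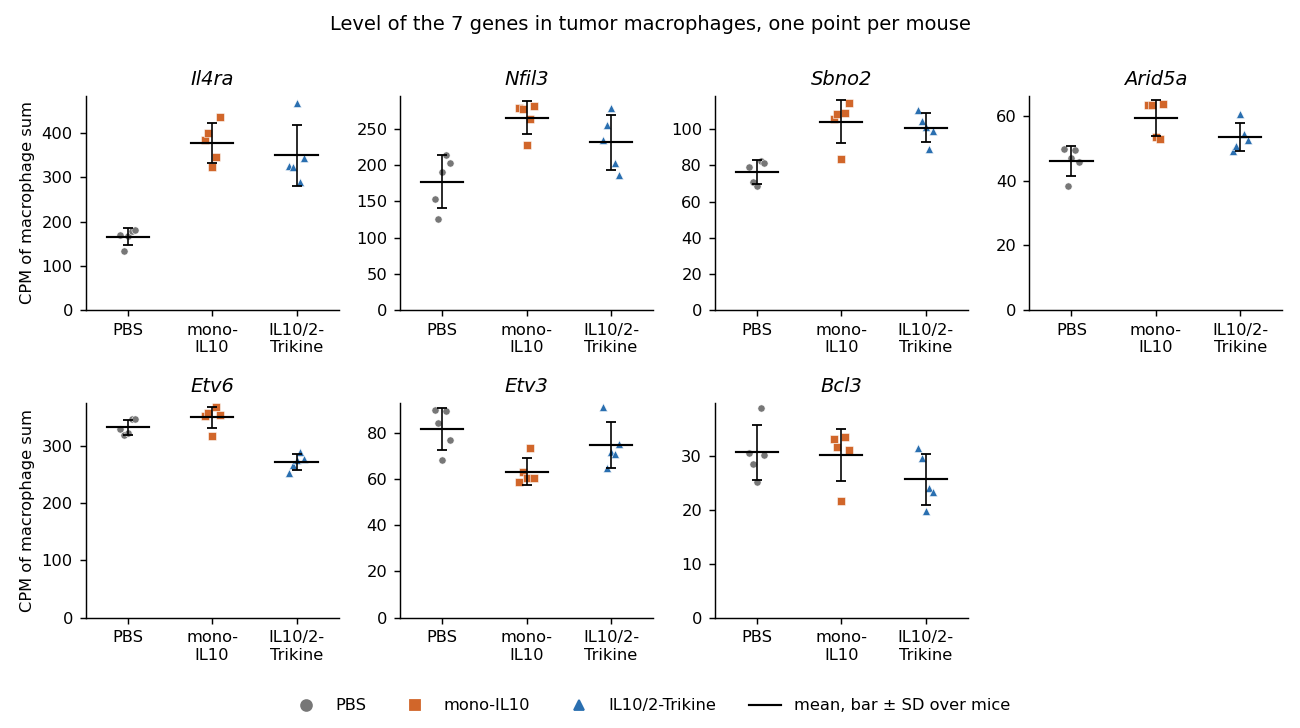
Macrophage level of each gene per mouse in CPM (linear axes, 1 panel per gene), with points for the 5 mice of each group and bars for the mean ± SD. Il4ra and Sbno2 are higher in both treated groups than in any PBS mouse, and Etv6 is lower in IL10/2-Trikine mice (253 to 289 CPM) than in any other mouse.

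The compounds, which differ by the added IL-2Rβ-binding module, were compared directly for the 7 genes in macrophages. The doses per mouse were masses, 26 µg of mono-IL10 and 30.6 µg of IL10/2-Trikine, the larger molecule. Etv6 and Arid5a were lower with IL10/2-Trikine, at log2 differences of -0.44 ± 0.06 (0.74-fold, adjusted p = 0.00014) and -0.26 ± 0.08 (0.84-fold, adjusted p = 0.038), where 11.1% of all genes passed, 5.21% higher and 5.88% lower. The other 5 genes did not pass. Ranges of 2 SE for the log2 difference were -0.40 to -0.0004 for Il4ra, -0.52 to -0.04 for Nfil3, -0.27 to 0.05 for Sbno2, -0.02 to 0.39 for Etv3 and -0.51 to 0.05 for Bcl3. The Etv6 call was lost in the largest shared cluster (0.0077) and with clusters weighted equally (-0.32, adjusted p = 0.28). The Arid5a call was lost without mono-IL10 mouse 1, 2 or 5 or IL10/2-Trikine mouse 1, 2 or 4, with log2 differences of -0.27 to -0.23 and adjusted p of 0.053 to 0.12. It was also lost in the largest shared cluster and with clusters weighted equally, where its sign was the opposite. Without IL10/2-Trikine mouse 3, the mouse with 468 CPM, the Il4ra difference was -0.31 and passed (adjusted p = 0.027).

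The macrophage class was not the same mixture in the 3 groups. A cluster led by Cx3cr1 made up 21.0% of the macrophages of a PBS mouse on average, 7.83% with mono-IL10 and 2.79% with IL10/2-Trikine. The cluster led by Cd163, Pf4 and Folr2 held 2.92%, 23.9% and 7.41%, the cluster led by Ccl12, Fcrls and Stab1 held 10.2%, 6.13% and 29.7%, and the cluster led by Ccl24 and Arg1 held 9.30%, 12.3% and 23.3%. The cluster led by Il10, Il1a and Tnf held 13.3%, 13.6% and 2.95%. A class sum cannot tell apart a change within cells from a change in these shares, so the genes were also read cluster by cluster.

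Il4ra was higher than in PBS in 11 of 11 macrophage clusters with both compounds, by 1.51- to 3.002-fold (median 1.98) with mono-IL10 and 1.18- to 2.55-fold (median 1.89) with IL10/2-Trikine. It was highest in the cluster led by Cd163, Cbr2, Fcna and Lyve1, at 302 ± 27.4 CPM in PBS, 757 ± 52.6 in mono-IL10 and 721 ± 210 CPM in IL10/2-Trikine mice. Nfil3 was higher in 11 of 11 clusters with mono-IL10 and 9 of 11 with IL10/2-Trikine, and Sbno2 in 10 of 11 with each. Arid5a was higher in 11 of 11 clusters with mono-IL10, by 1.01- to 1.66-fold (median 1.18), and in 9 of 11 with IL10/2-Trikine. Etv3 was higher in only 1 of 11 clusters with mono-IL10 and in 7 of 11 with IL10/2-Trikine. Etv6 was higher with mono-IL10 in 7 of 11 (median 1.04-fold) and with IL10/2-Trikine in 4 of 11 (median 0.87-fold). Clusters come from the same mice, so these counts carry no test.

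The largest cluster with enough cells in every group was that led by Ccl12, Fcrls and Stab1, with 2499 cells assigned to a mouse, and it was fitted alone. Il4ra kept both calls there, at log2 changes of 1.62 (adjusted p = 2.5e-09) and 1.08 (adjusted p = 2.1e-06), and was lower with IL10/2-Trikine than with mono-IL10 by a log2 difference of -0.55 (adjusted p = 0.020). Nfil3 (0.57, adjusted p = 0.049) and Arid5a (0.76, adjusted p = 0.022) kept their calls with mono-IL10. Nfil3 with IL10/2-Trikine (0.24, adjusted p = 0.48) and Etv3 with mono-IL10 (-0.47, adjusted p = 0.21) did not pass there. Etv6 was at 229 ± 25.2 CPM in PBS, 223 ± 64.0 in mono-IL10 and 233 ± 14.4 CPM in IL10/2-Trikine mice, and no Etv6 contrast passed there. Sbno2 had log2 changes of 0.41 and 0.40 and did not pass (adjusted p = 0.31 and 0.23).

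Equal weights, a setting chosen after seeing the data, took the 10 of 11 clusters that had at least 5 cells in every mouse. With these clusters weighted equally in each mouse, Il4ra kept both calls (log2 changes 1.12 and 0.88). Nfil3 kept that with mono-IL10 (0.62, adjusted p = 0.024) but not that with IL10/2-Trikine (0.28, adjusted p = 0.47). Etv3 with mono-IL10 had -0.68 (adjusted p = 0.086). Sbno2 had log2 changes of 0.65 and 0.67 that did not pass (adjusted p = 0.079 and 0.074), and Etv6 had 0.19 and -0.12 (adjusted p = 0.46 and 0.75). Arid5a had -0.17 with mono-IL10, the opposite sign to the whole class and to the mean within each of the 11 clusters (adjusted p = 0.82). Bcl3 did not pass the filter on low counts there. This fit used counts thinned to 20301 UMIs per cluster and mouse, and 3905 genes, so it had much less depth than the class sums.

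**Figure D3:**
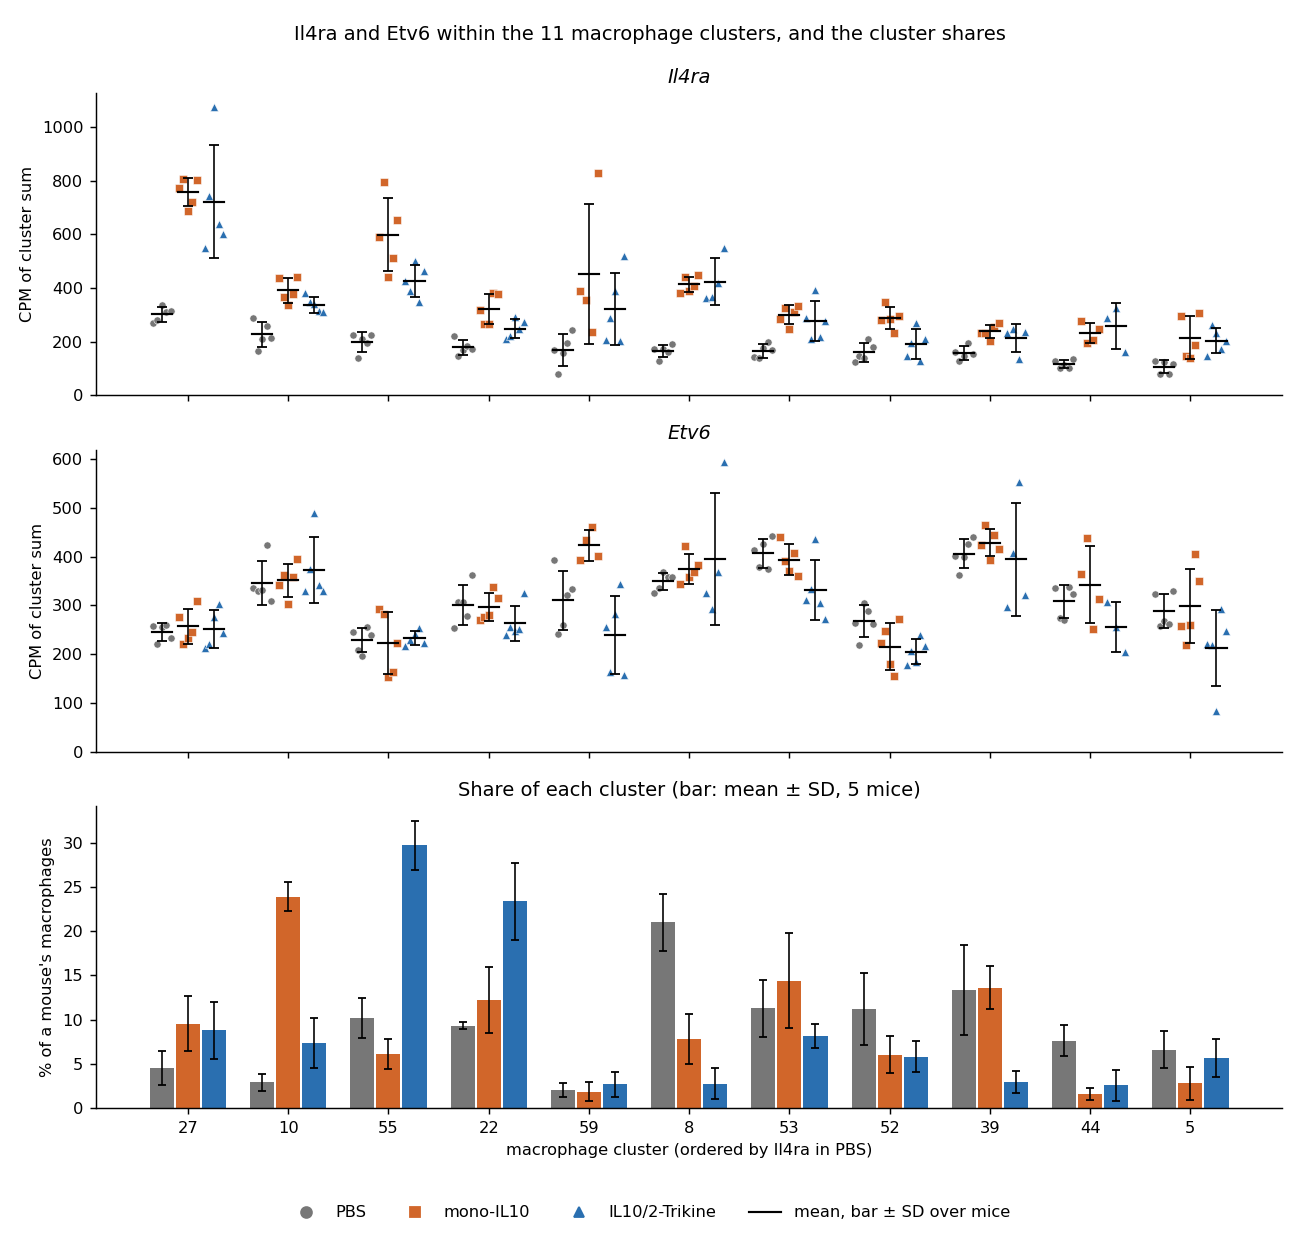
Levels of Il4ra and Etv6 in CPM within each of the 11 macrophage clusters (mean ± SD over mice, colored by treatment), with bars below for the mean share of each cluster among the macrophages of a mouse, in percent. The mean of Il4ra is higher in both treated groups in each of the 11 clusters, while Etv6 is at 229, 223 and 233 CPM in cluster 55, the cluster led by Ccl12, whose share rises from 10.2% in PBS to 29.7% in IL10/2-Trikine mice.

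Dendritic cells had no call among the 6 genes that edgeR tested in any contrast, where it called 0.514%, 0.206% and 0.0206% of 4861 genes for mono-IL10 against PBS, IL10/2-Trikine against PBS and IL10/2-Trikine against mono-IL10. At an unadjusted p under 0.05 the counts were 2, 2 and 0 of the 6 genes, against 422, 563 and 465 of all 4861. DESeq2, whose filter left 6, 4 and 4 of the genes, called none. Il4ra was the closest to the threshold. It was at 124, 124, 126, 81.2 and 131 CPM in PBS mice and 171, 197, 234, 133 and 209 CPM in mono-IL10 mice, groups that did not overlap, with a log2 change of 0.74 ± 0.18 (unadjusted p = 0.00051, adjusted p = 0.071). It passed with the unnamed cluster led by Ccl17, Plet1 and Cd209a added to the class (0.65, adjusted p = 0.0029) and under a coarser clustering (0.61, adjusted p = 0.0068), and without IL10/2-Trikine mouse 1 (0.75, adjusted p = 0.042). Its IL10/2-Trikine values were 213, 137, 110.5, 107 and 127 CPM, with a log2 change of 0.35 ± 0.21 (adjusted p = 0.55).

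Etv3, which was highest in dendritic cells, was at 357, 314, 374, 314 and 346 CPM in PBS mice and 429.8, 417, 619, 563 and 485 CPM in IL10/2-Trikine mice. These groups did not overlap, yet the log2 change of 0.47 ± 0.18 did not pass (adjusted p = 0.29). Dendritic cells of IL10/2-Trikine mice had 3231 to 5526 UMIs per cell on average per mouse, against 7960 to 10886 in PBS mice. The part of this depth in the dendritic contrasts was not tested. Conventional dendritic markers, whose cells have less Etv3, summed to 659 to 951 CPM in these IL10/2-Trikine mice and 937 to 1188 CPM in PBS mice, and their part was not tested. Nfil3 had log2 changes of 0.51 ± 0.19 and 0.53 ± 0.22 with mono-IL10 and IL10/2-Trikine (adjusted p = 0.42 and 0.32). Macrophage markers summed to 774 to 5881 CPM in the dendritic cells of single mice and neutrophil markers to 284 to 1063 CPM in PBS, 13.1 to 271 in mono-IL10 and 478 to 1724 CPM in IL10/2-Trikine mice. Their part in these values was not tested.

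Neutrophils were compared between mono-IL10 and PBS only, since 39 neutrophils of IL10/2-Trikine mice were assigned to a mouse and 2 mice had at least 10. None of the 6 genes tested passed by edgeR, which called 4.41% of 2768 genes, and DESeq2 called none of the 7. By edgeR an unadjusted p under 0.05 was found for 571 of the 2768 genes and for 1 of the 6. This was Etv6, at 216, 318, 275, 202 and 223 CPM in PBS mice and 184, 148, 134, 188 and 169 CPM in mono-IL10 mice. The groups did not overlap, and the log2 change was -0.52 ± 0.17 (unadjusted p = 0.0065, adjusted p = 0.080). Macrophage markers, whose class has more Etv6, also separated these groups in the neutrophil sums, at 822 to 1742 CPM in PBS and 387 to 747 CPM in mono-IL10 mice, and their part was not tested. Sbno2 had 116 ± 25.6 and 72.9 ± 33.5 CPM, with 4 of 5 mono-IL10 mice below the lowest PBS mouse and a log2 change of -0.51 ± 0.26 (adjusted p = 0.28). Etv3, which did not pass the filter on low counts of edgeR, had 39.6 ± 6.90 and 16.0 ± 10.8 CPM, again with 4 of 5 mice below. Summed over all cells, Etv3 had 34 UMIs in PBS (39.3 CPM, exact Poisson 95% interval 27.2 to 55.0) and 19 in mono-IL10 neutrophils (13.1 CPM, 7.90 to 20.5), intervals that cover counting error only. Il4ra, higher with mono-IL10 in macrophages, was at 119.9 ± 28.0 CPM in PBS and 120.2 ± 28.2 CPM in mono-IL10 neutrophils, with a log2 change of 0.11 ± 0.20. Bcl3, which was highest in neutrophils, was at 99.9 ± 33.2 and 98.99 ± 10.9 CPM (log2 change 0.02 ± 0.22, adjusted p = 0.97).

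In the 39 IL10/2-Trikine neutrophils, summed over mice to 100499 UMIs, Bcl3 had 8 UMIs, or 79.6 CPM with an exact Poisson 95% interval of 34.4 to 157 CPM. Il4ra had 9 UMIs (89.6 CPM, 40.9 to 170.0) and Etv6 had 24 (239 CPM, 153 to 355). These intervals cover counting error only and are wide enough to hold the mean of either other group, so no difference was detectable at this depth.

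In T cells 4 of the 7 genes passed the filter on low counts, Il4ra, Nfil3, Etv6 and Arid5a, and none was called in any contrast by edgeR. DESeq2 called none in the contrasts of IL10/2-Trikine, and its own filter left none of the genes to test for mono-IL10 against PBS. EdgeR called 1.72%, 8.97% and 12.3% of 3189 genes for mono-IL10 against PBS, IL10/2-Trikine against PBS and IL10/2-Trikine against mono-IL10. In that order the 4 genes had 0, 0 and 1 unadjusted p under 0.05, against 482, 739 and 831 over all 3189. Il4ra was at 112 ± 19.3 CPM in PBS, 82.4 ± 17.0 in mono-IL10 and 75.6 ± 52.6 CPM in IL10/2-Trikine mice, with log2 changes of -0.35 ± 0.25 and -0.35 ± 0.32 (adjusted p = 0.56 and 0.56). Arid5a had a log2 difference of -0.57 ± 0.25 between IL10/2-Trikine and mono-IL10 (adjusted p = 0.14). The T class was not the same mixture in the 3 groups. In IL10/2-Trikine mice cycling T cells were the 1 annotated T cluster with at least 10 cells in more than 1 mouse, while mono-IL10 mice also had regulatory, activated CD4 and naive CD8 T cells. T cell markers summed to 1649.6 to 2266 CPM with IL10/2-Trikine, 2463 to 3157 with PBS and 3624 to 3936 CPM with mono-IL10. Without the cycling cluster the calls over all genes for IL10/2-Trikine against PBS fell from 286 to 41, and none of the 5 genes then tested was called. NK cell markers summed to 641 to 1007 CPM in the T cells of IL10/2-Trikine mice and to 172 to 430.2 CPM in the other groups, and their part in these values was not tested.

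In NK cells 3 genes passed the filter, Il4ra, Nfil3 and Arid5a, and none was called by edgeR, which called 0.297%, 4.42% and 2.38% of 2355 genes in the same order of contrasts. There were 0, 1 and 1 unadjusted p under 0.05 among the 3 genes, against 273, 421 and 379 among all 2355. DESeq2, whose filter left 2 of the genes for mono-IL10 against PBS and none for IL10/2-Trikine, called none. Il4ra was at 173 ± 50.8 CPM in PBS (n = 5), 149 ± 33.3 in mono-IL10 (n = 4) and 88.8 ± 53.6 CPM in IL10/2-Trikine mice (n = 5), on 2 to 56 UMIs per mouse, with log2 changes of -0.05 ± 0.29 and -0.63 ± 0.32 (adjusted p = 0.98 and 0.31). Nfil3, at 72.4 ± 78.6, 85.1 ± 27.3 and 134 ± 43.7 CPM, had 0.62 ± 0.43 and 1.08 ± 0.43 (adjusted p = 0.59 and 0.17).

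Whether a treatment acted differently on a gene in macrophages and in another class was tested as a difference of log2 changes, with the mouse as a block. Against NK cells, 1 of the 7 genes passed, Il4ra, in mono-IL10 and in IL10/2-Trikine against PBS, where 1.33% and 1.59% of 8801 genes passed. The difference for Il4ra was 1.1996 ± 0.28 with mono-IL10 (adjusted p = 0.0053) and 1.63 ± 0.31 with IL10/2-Trikine (adjusted p = 6.0e-05), while the median over all genes was -0.18 and -0.07. Against T cells Il4ra was again the gene that passed, at 1.67 ± 0.27 (adjusted p = 9.9e-05) and 1.51 ± 0.32 (adjusted p = 0.0024), where 2.65% and 3.27% of 9275 genes passed and the median over all genes was 0.00 and 0.10. The 4 differences share the macrophage samples and both treatments share the PBS mice. The other settings run for these differences were another scaling (RLE), no filter on low counts and leaving out each mouse. Each difference held in all of them, at 1.07 to 1.38 and 1.38 to 2.01 against NK cells and 1.496 to 1.72 and 1.22 to 1.74 against T cells. Settings that hold the mixture of macrophage clusters, use other clusterings or leave out cycling T cells were not run for them.

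Against dendritic cells none of the 7 genes passed, where 0.406% and 0.135% of 8860 genes did. Il4ra had differences of 0.54 ± 0.22 and 0.80 ± 0.25 (unadjusted p = 0.018 and 0.0035, adjusted p = 0.47 and 0.33). In the contrast of IL10/2-Trikine with mono-IL10, none of the 7 passed against NK, T or dendritic cells, where 1.15%, 2.82% and 0.226% of genes did. The contrasts without a call had between 0 and 2 of the 7 genes at an unadjusted p under 0.05 by edgeR. Over all genes these contrasts had 709 to 806 of 8860 against dendritic cells, 895 of 8801 against NK cells and 1305 of 9275 against T cells. DESeq2 was not run on these differences. For the other 6 genes in all of these contrasts, no difference of the treatment change between classes was detectable at this depth.

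**Figure D4:**
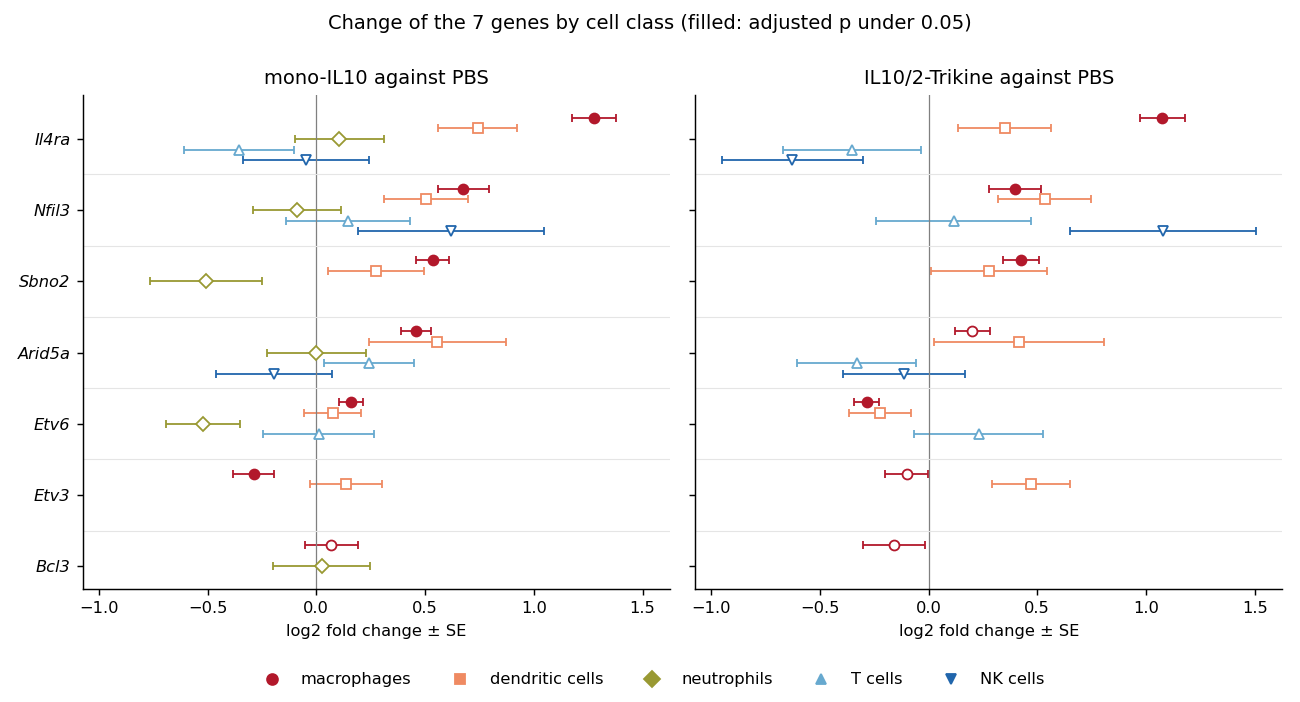
Log2 change ± SE against PBS of each gene in each cell class where it passed the filter on low counts, for mono-IL10 and IL10/2-Trikine, with filled points for an adjusted p under 0.05 by edgeR. Filled points occur in macrophages alone, where Il4ra has the largest values, 1.28 and 1.08.

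The genes of the pathway around the 7 were read from 4 lists. Their changes are those of class sums and were not read within clusters. Of 10 genes of the IL-10 receptor and JAK-STAT chain, macrophages had 2 higher and 0 lower with mono-IL10, Stat3 (log2 change 0.50) and Stat6 (0.25), the latter being the factor that acts downstream of Il4ra. With IL10/2-Trikine 1 was higher, Stat3 (0.32), and 1 lower, Il10ra (-0.28), the ligand-binding IL-10 receptor chain. Il10ra was also lower with IL10/2-Trikine than with mono-IL10 (-0.34), the 1 gene of this list called there, where 11.1% of all genes were called. The shares called, 2 of 10 with each compound against PBS, were near or under the 25.9% and 16.5% of all genes, so these counts show nothing particular to the list. The median log2 change of the list was 0.09 and -0.08, against -0.02 and 0.00 over all genes.

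Of 15 other genes known as induced by IL-10 or STAT3 and tested, 9 were higher and 0 lower with mono-IL10, and 5 were higher and 2 lower with IL10/2-Trikine, where 25.9% and 16.5% of all genes were called and the medians of the list were 0.27 and 0.16. Those named here had the smallest adjusted p. With mono-IL10 they were Cd163 (2.68), the hemoglobin scavenger receptor, Timp1 (2.55), a protease inhibitor, Ddit4 (1.78), an mTORC1 inhibitor, Mrc1 (0.93), the mannose receptor, Il1rn (0.65), the IL-1 receptor antagonist, and Socs3 (0.62), the feedback inhibitor of STAT3 signaling. With IL10/2-Trikine they were Cd163 (2.64), Timp1 (2.02), Mrc1 (1.05) and Fcgr1 (0.36), a high-affinity IgG receptor, as higher and Cish (-0.50) and Il10ra (-0.28) as lower. Cish is a STAT5-induced inhibitor and is counted here because the list was drawn up with it. Mrc1 and Fcgr1 of this list were also among the macrophage markers, which summed to 9192 to 10743 CPM in PBS, 10612 to 12016 in mono-IL10 and 11414 to 12388 CPM in IL10/2-Trikine macrophages. IL10/2-Trikine had 5 genes of this list lower than mono-IL10 and 0 higher, where 5.88% of all genes were lower and 5.21% higher. These were Ddit4 (-1.22), Socs3 (-0.59), Il10ra (-0.34), Il1rn (-0.46) and Zfp36 (-0.30), which encodes a protein that destabilizes cytokine mRNA. Il10ra belongs to this list and to the receptor list and is counted in both.

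Of 11 inflammatory genes that IL-10 represses and that were tested, 3 were higher and 1 lower with mono-IL10 in macrophages. These were Nos2 (1.33), Ptgs2 (0.52) and Il1b (0.46) against Ccl3 (-0.65), where the median of the list was 0.16 and 25.9% of all genes were called. With IL10/2-Trikine against PBS 0 passed, where 16.5% of all genes were called and the median of the list was -0.20. By edgeR 2 of the 11 then had an unadjusted p under 0.05, as did 3474 of all 11870 genes. Against mono-IL10, 2 of 11 were lower with IL10/2-Trikine, Ptgs2 (-0.79) and Il1b (-0.56), and 0 higher, where 11.1% of all genes were called. The macrophage cluster led by Il10, Il1a and Tnf held 13.6% with mono-IL10 and 2.95% with IL10/2-Trikine, and its part was not tested. In neutrophils 5 of 9 were higher with mono-IL10 and 0 lower, where 4.41% of all genes were called, Tnf (1.18), Ccl3 (1.08), Ccl4 (1.05), Cxcl2 (0.59) and Ptgs2 (0.51), in the class where none of the 7 genes passed. Macrophage markers in the neutrophil sums were lower with mono-IL10, as given above, and their part in these changes was not tested.

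Of 12 partners and relatives of the 7 genes, 6 were higher and 2 lower with mono-IL10 in macrophages, where 25.9% of all genes were called. These included Nfkb2 (0.35) and Rela (0.29), NF-κB subunits, Nfkbiz (0.30), an atypical IκB protein like Bcl3, and Il2rg (0.42), the common γ chain that pairs with Il4ra, while Nfkb1 (-0.30), which encodes p50, and Zc3h12a (-0.38), an RNase that degrades cytokine mRNA, were lower. With IL10/2-Trikine 0 were higher and 2 lower, Zc3h12a (-0.71) and Nfkb1 (-0.36), a share near the 16.5% of all genes. Against mono-IL10, 4 were lower with IL10/2-Trikine and 0 higher, Nfkb2 (-0.40), Relb (-0.44), Arid5b (-0.32) and Nfkbiz (-0.30), where 11.1% of all genes were called. Outside macrophages, Ddit4 was higher in dendritic cells with mono-IL10 (1.74), Il1rn in neutrophils (0.52), and Cish, a STAT5-induced inhibitor, was lower in T cells with mono-IL10 (-1.09). In T cells Stat5a (-0.91) and Stat5b (-0.92) were lower with IL10/2-Trikine than with PBS, where 8.97% of all genes were called. Against mono-IL10 Stat5b was lower (-1.10) and Cish higher (0.73), where 12.3% were called. The mixture of T clusters and the NK cell markers also differed between these groups, as given above. Their part in these changes was not tested. In NK cells no gene of the 4 lists passed.

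Over the mean levels of 15 classes and annotated clusters, the pattern of Il4ra was most like those of Rnf130, Ostm1 and Pitpnc1 (Pearson r of log2(CPM + 1) 0.92, 0.90 and 0.89, among 8886 genes). Etv3 was most like Clasp2, Zbtb18 and Batf3 (0.89, 0.88 and 0.87), and Etv6 most like Tbc1d8, Zc3h12c and Slc8a1 (0.95, 0.94 and 0.93). Nfil3 was most like Ell2, Rel and M6pr (0.92, 0.92 and 0.90), Sbno2 like Sec14l1, Sat1 and Reep3 (0.93, 0.92 and 0.91), Arid5a like Fam78a, Baiap3 and Sidt1 (0.91, 0.91 and 0.90), and Bcl3 like Dgat2, Dhrs7 and Ccl25 (0.90, 0.88 and 0.84). Among the 7 genes themselves the highest correlation was that of Sbno2 with Etv6 (0.77) and the lowest that of Etv6 with Arid5a (-0.65). The points share libraries and mice and differ in depth, so these values are a description.

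Outside the immune classes, where the share of macrophage RNA was not measured, Sbno2 was at 244 ± 43.0 CPM in the endothelial cells of PBS mice, and over all groups endothelial cells exceeded macrophages in 15 of 15 mice (2.29 times). Il4ra was at 18.4 ± 1.58 CPM in tumor epithelial cells of PBS mice, and over all groups macrophages had 17.2 times the tumor epithelial level and were higher in 15 of 15 mice.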

How the data were processed

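The deposited matrices hold counts of unique molecular identifiers (UMIs) per gene and barcode, which the authors made from 10x GEM-X 5' reads aligned to GRCm39, with 5 hashtag features beside the genes. The authors also deposited a table of T and NK cells with other values per cell, namely the treatment group, the hashtag and the cluster name, made by the authors with Seurat 5.1.0 and DESeq2 1.46.0 in their workflow per the submitters' processing notes. Annotated cells of 1 further group (7858 cells) are not used here.

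Cells with at least 1000 genes and at most 10% mitochondrial counts were kept, as the study's methods state. Hashtags were assigned with Seurat 5.3.0 (quantile 0.99), and hashtag doublets outside the authors' annotation were removed. Doublets within 1 mouse were not sought. Counts were normalized to 10000 per cell, and 2000 variable genes, the 7 genes excluded, gave 40 principal components and 60 k-means clusters (scikit-learn 1.9.0, seed 7). Clusters were named from fixed markers and left unnamed where their leading genes spoke for another class or their median UMI count was under 0.333 of their library's.

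Counts were summed per mouse and class (at least 10 cells, at least 3 mice per group) and tested with edgeR 4.0.16 (quasi-likelihood, TMM, filterByExpr, Benjamini-Hochberg over all genes, threshold 0.05). The fit without a hashtag block used all groups, and differences between classes had the mouse as a block. DESeq2 1.42.0, other scalings, filters, clusterings, thinning and leaving out each mouse were alternatives. Cluster 20, cluster 35, equal weights, leaving out the cluster led by Il10 and leaving out cycling NK cells were alternatives chosen after seeing the data. The steps were tested on simulated data. The mice are separate animals, but 1 library per treatment means that p-values hold the spread between mice and not between libraries.

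The 7 genes, the 4 lists and the tests were chosen with earlier results of these data known. The text names all 7 genes, the genes with the smallest adjusted p in each list and cell class (up to 6 of those that passed) and the 3 genes with the highest correlation among those with a mean of at least 10 CPM. List genes that passed in the differences between classes are not named. Depth per class is in the report, and intervals cover counting error only. Promoters were from RefSeq on GRCm38.p6, and coordinates of that build were not joined to the counts.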

Additional observations from a re-analysis of the deposited data

Results flagged for a closer look

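In 10 of 98 sets of mice (1 gene, class and treatment), 1 mouse lay apart from the others by Dixon's test at the 95% level, which flags about 1 in 20 sets by chance. In macrophages these were Sbno2 and Bcl3 of mono-IL10 mouse 3, at 83.5 CPM (other mice 106 to 114) and 21.7 CPM (31.0 to 33.5). Both genes were lowest in that mouse among the 5 of its group.

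In dendritic cells they were Il4ra in PBS mouse 4 at 81.2 CPM (others 124 to 131), Il4ra in IL10/2-Trikine mouse 1 at 213 CPM (107 to 137) and Bcl3 in mono-IL10 mouse 5 at 30.6 CPM (16.6 to 20.6). In T cells they were Sbno2 in PBS mouse 2 at 12.4 CPM (28.4 to 34.6), and Etv3 at 63.2 CPM (10.7 to 25.7) and Etv6 at 133 CPM (62.0 to 78.2) in mono-IL10 mouse 3. In NK cells they were Etv3 in PBS mouse 1 at 177 CPM (20.1 to 56.4) and Nfil3 in IL10/2-Trikine mouse 3 at 210.0 CPM (99.5 to 126).

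The change of Il4ra against PBS differed between classes by a test of the difference itself (edgeR). The log2 change in macrophages exceeded that in NK cells by 1.1996 with mono-IL10 (adjusted p = 0.0053) and 1.63 with IL10/2-Trikine (adjusted p = 6.0e-05). It exceeded that in T cells by 1.67 (adjusted p = 9.9e-05) and 1.51 (adjusted p = 0.0024).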

How the results depend on the processing

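Of 425 recomputed counts of called genes 407 stayed within 1.5 times the reported count and 18 did not. Outside macrophages the reported counts were 0 or 1, and a 0 that stayed 0 is counted as unchanged. The total therefore says little about the macrophage counts. For IL10/2-Trikine against mono-IL10 in macrophages, 9 of 15 counts with a mouse left out stayed within that limit. Of 2478 recomputed changes of single genes 2265 kept their direction and side of the threshold, 46 lost a call, 10 gained one and 152 changed sign without passing the threshold as reported or in the alternative, and 5 changed sign where a call was involved. In macrophages, mono-IL10 against PBS had 6 of the 7 genes called, 3 in the largest shared cluster alone, 2 with clusters weighted equally and 4 to 6 with each mouse left out. The calls over all genes in these settings are given below. IL10/2-Trikine against PBS had 4 called, 1 in the largest shared cluster, 1 with equal weights and 3 to 4 with a mouse left out. IL10/2-Trikine against mono-IL10 had 2 called, 1 with 30 components and 40 clusters, 4 in cells with at least 2000 genes, 1 in the largest shared cluster, 1 after thinning, 0 with equal weights and 1 to 3 with a mouse left out. The last count of 0 is by edgeR on 3905 genes. In dendritic cells mono-IL10 against PBS had 0 called and 0 to 1 with a mouse left out. It had 1 with 30 components and 40 clusters, where 138 of 6541 genes were called. With cluster 20 added it had 1, where 204 of 6904 genes were called. The 5 sign changes of called values were Etv6 in the largest shared cluster, at -0.0058 with mono-IL10, 0.0019 with IL10/2-Trikine and 0.0077 between the compounds, and Arid5a with equal weights, at -0.17 with mono-IL10 and 0.31 between the compounds. The cause was not tested. In cells with at least 2000 genes, Nfil3 (-0.45, adjusted p = 0.016) and Il4ra (-0.37, adjusted p = 0.0053) were lower with IL10/2-Trikine than with mono-IL10 by edgeR. Arid5a was called with IL10/2-Trikine against PBS under 30 components and 40 clusters (0.26, adjusted p = 0.040) and with cluster 35 added (0.25, adjusted p = 0.022). Over all genes in macrophages, mono-IL10 against PBS, IL10/2-Trikine against PBS and IL10/2-Trikine against mono-IL10 had 3069, 1962 and 1317 calls of 11870 tested. In the same order, calls were 288, 310 and 107 of 5484 in the largest shared cluster and 1193, 927 and 438 of 8483 after thinning. With equal weights they were 220, 176 and 39 of 3905. Under 30 components and 40 clusters they were 2933, 1946 and 1408 of 11785. Cells with at least 2000 genes gave 2908, 1039 and 1775 of 11087. No paired analysis was possible because hashtag numbers only name the mice of a treatment and no mouse belongs to more than 1 treatment. Conventional dendritic cells alone, thinned sums for T and NK cells, and cells with at least 2000 genes for neutrophils and for dendritic cells with IL10/2-Trikine gave no values for the 7 genes, since too few mice were left or none of the 7 passed the filter on low counts.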

Other observations

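An unnamed cluster led by Ccl17, Plet1, Ccr7 and Cd209a had 392 ± 65.2 CPM of Etv3 and 414 ± 30.1 CPM of Etv6 in PBS mice (SD, n = 5). Its Il4ra level was 138 CPM in PBS, 187 in mono-IL10 and 161 CPM in IL10/2-Trikine mice. A second unnamed cluster, led by Ear2, Dcstamp and Mgl2, had Il4ra at 140.3 ± 12.7, 196 ± 20.4 and 178 ± 38.9 CPM and Etv3 at 133 ± 10.1, 97.3 ± 21.7 and 111 ± 22.6 CPM in the same order of groups. Neither cluster belongs to a class of the report, and the groups were not tested within them.

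Among annotated lymphocytes, cycling T cells had 173 ± 71.7 CPM of Arid5a in PBS (n = 2), 141 ± 17.8 in mono-IL10 and 72.1 ± 30.02 CPM in IL10/2-Trikine mice. NK cells without the cycling cluster had Arid5a at 147 ± 39.3, 123 ± 32.2 and 148 ± 45.6 CPM and Il4ra at 165 ± 39.4, 157 ± 35.9 and 91.7 ± 55.8 CPM.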
